A study of Mus musculus with 6 samples.

Results

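The regions described here are the autosomal stretches of a ChIP-seq region list from mouse testis that lay far from the transcription start sites (TSS) of the list's annotation and at whose centre the annotation named no repeat. ChIP-seq sequences the DNA that comes down with an antibody against a chromatin protein, here PHF13, which the library names call SPOC1. A region was taken when it lay on chromosomes 1 to 19, was annotated as intergenic or intronic, carried no repeat name and was more than 5000 bp from the nearest TSS. No measured value entered this choice. Of 19819 autosomal regions, 593 named no repeat, and 458 of these met the whole rule, which was 2.31% of the autosomal regions (95% Wilson interval 2.11 to 2.53%) in a list of 39096. The other 135 were lost in 4 ways: 31 lay in the promoter class, 25 at a transcription termination site, 16 in an exon or another transcribed class, and 63 within 5000 bp of a TSS. Of the 458, 331 were intergenic and 127 intronic.

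PHF13 carries a plant homeodomain (PHD) finger, a small zinc-binding fold that reads methylated lysine on histone H3, and it has been studied in male germ cells and in chromatin compaction. Most of the autosomal regions sit on transposable elements; a region with no named repeat is therefore of interest for what else its sequence holds. Multicopy gene families and tandem gene arrays are not transposable elements and are not masked as such, although their copies can be nearly identical to each other.

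The series had 6 libraries from testis of C57Bl/6 mice aged 5 weeks. By its label, 1 SPOC1 ChIP library is from a wild type animal and the other 2 are from Phf13-/- animals, while 2 input libraries carry the wild type label and 1 carries Phf13-/-. Within 1 animal the labels disagree, the input being labelled wild type and the ChIP Phf13-/-. The deposited list has no value per library, so ChIP could not be set against input nor genotype against genotype, replicate error is unknown, and the regions are not taken as sites of PHF13. The sources used here do not say how reads that match several copies of a sequence were placed. The intervals below cover counting error only, and they treat neighbouring regions as independent, which those of 1 gene family are not.

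No genome sequence of the build was used, but the RefSeq promoter table (GRCm38.p6, the assembly that mm10 names) overlapped 4 of the 458 regions, all on chromosome 5. The bases upstream of the start in these 4 windows are shown, and only a part of each window lay inside its region. The first pair is shown because the windows, which lie in different regions, are almost the same sequence. Capitals mark the bases that lie inside the region of the list, 106 of 250 for Gm43358 and 103 of 250 for 4930437M23Rik. The window of Gm43358 is chr5:10938225-10938474, that of 4930437M23Rik is chr5:11493110-11493359, and both are on the minus strand.
Gm43358: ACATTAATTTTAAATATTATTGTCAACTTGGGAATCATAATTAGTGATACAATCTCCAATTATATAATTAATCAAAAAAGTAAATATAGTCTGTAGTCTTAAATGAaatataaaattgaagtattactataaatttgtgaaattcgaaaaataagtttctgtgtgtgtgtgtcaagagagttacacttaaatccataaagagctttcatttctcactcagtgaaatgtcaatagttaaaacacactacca
4930437M23Rik: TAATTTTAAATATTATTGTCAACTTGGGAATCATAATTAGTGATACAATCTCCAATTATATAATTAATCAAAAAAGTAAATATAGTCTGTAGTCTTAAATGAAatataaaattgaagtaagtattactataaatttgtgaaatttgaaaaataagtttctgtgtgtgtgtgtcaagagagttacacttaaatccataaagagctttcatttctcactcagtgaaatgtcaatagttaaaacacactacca
Over 250 bases these windows differed by 9 edits, an identity of 96.4%. The regions over them, chr5:10938369-10938869 and chr5:11493257-11493757, both had a score of 6.16, the authors' own value per region, whose unit is not stated. They lay in different clusters of the Speer1 stretch described below.

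The third window, of Gm43131 (chr5:11911960-11912209, minus strand), is shown as a further window from that stretch. Capitals again mark the bases inside the region of the list, 105 of 250. That region, chr5:11911564-11912064, also had a score of 6.16.
Gm43131: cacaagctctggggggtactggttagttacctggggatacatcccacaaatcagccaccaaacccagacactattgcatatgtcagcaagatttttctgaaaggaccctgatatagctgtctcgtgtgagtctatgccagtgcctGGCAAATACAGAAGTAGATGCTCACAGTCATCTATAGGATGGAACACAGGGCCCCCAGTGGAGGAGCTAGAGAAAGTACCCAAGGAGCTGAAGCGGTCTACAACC
It was no copy of the others: its identity was 45.2% to the window of Gm43358 and 44.8% to that of 4930437M23Rik. Equal scores were common in the list at this level, and 21 of the 458 regions had 6.16.

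The last window, of Gm32584 (chr5:36661659-36661908, minus strand), is shown because it holds a tandem repeat. The annotation names only what lies at the centre of a region, and the centre of this region lay outside the window. Capitals here mark the word GTTAGTGTAT, which returned after 33 bases, and 165 of the 250 bases lay inside the region chr5:36660817-36661823.
Gm32584: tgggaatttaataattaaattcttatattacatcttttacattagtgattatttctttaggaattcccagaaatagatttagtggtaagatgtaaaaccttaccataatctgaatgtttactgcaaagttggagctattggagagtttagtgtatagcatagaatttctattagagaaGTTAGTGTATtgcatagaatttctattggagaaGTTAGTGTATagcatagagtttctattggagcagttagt
At a shift of 33 bases, 51.2% of the window's bases equalled the base further on. Among 32851 promoter windows, 0.487% reached as high a share at their best shift of 10 to 100 bases. The word itself, searched on both strands and with overlaps counted, was found in 4 windows, 0.0122% of all, and it occurred more than once in 1 of them. The word and the window were chosen after they were seen. Of the 10-base words that returned at the shift of 33 bases, the word was picked as the one in the fewest windows. Its rarity and its return within this window were therefore set by the choice. The score of this region was 69.4, or 69.0 per kb of region length, against a median of 13.6 per kb over the 458 regions.

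The 458 regions were unevenly spread over the autosomes. Chromosome 5 held 86, chromosome 14 held 62, chromosome 7 held 55 and chromosome 2 held 51. Together these 4 chromosomes carried 254 of them, or 55.5% (50.9 to 59.9%), and 25.5% of the autosomal regions with a repeat. Chromosome 17 had the fewest, 5. Per Mb the autosomes carried 0.182 ± 0.153 regions (SD, n = 19 chromosomes), from 0.0505 to 0.578. With clusters left out the density was 0.113 ± 0.053 per Mb, from 0.0494 to 0.255.

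**Figure D1:**
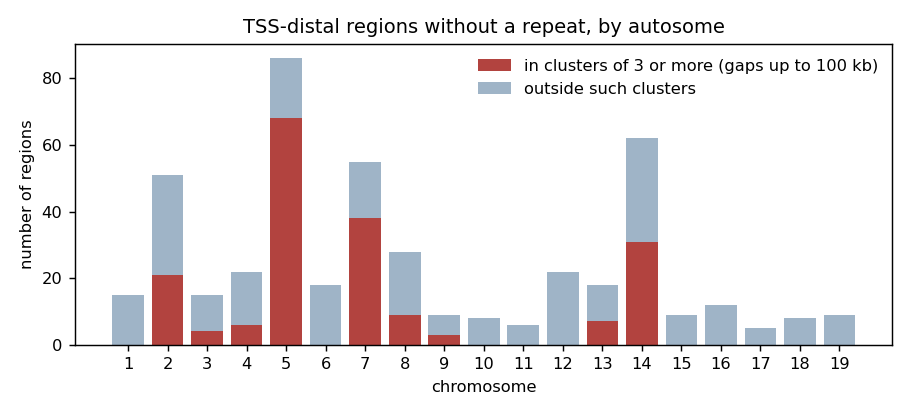
Number of TSS-distal regions without a repeat on each autosome (bars), split into those in clusters of 3 or more with gaps of up to 100 kb (red) and those outside (blue-grey). Chromosomes 5, 14, 7 and 2 stand highest with 86, 62, 55 and 51 regions, and 9 of the 19 autosomes hold clusters.

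Clustering was measured by joining neighbours separated by at most 100 kb. It gave 31 clusters of 3 or more regions with 187 members, 40.8% (36.4 to 45.4%) of the 458, as well as 24 pairs and 223 regions that stood alone. Chromosomes 5 and 14 held 7 clusters each, chromosome 7 held 6, chromosome 2 held 5, and 6 lay elsewhere. The median gap to the nearest other region of the set was 86.0 kb, with quartiles of 13.5 and 2845 kb. Regions at simple repeats were more numerous (1095) but 1.1% of them (0.628 to 1.91%) lay in clusters formed in the same way among themselves. Those at LTR elements (3449) had 30.2% and those at LINE elements (14216) 67.9%. TSS-distal regions without a repeat on the sex chromosomes had higher shares, 84.9% on X (271 regions) and 99.6% on Y (7173). A class with more regions forms more clusters under a fixed gap, so these shares are set side by side and not tested.

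A wider join of 1000 kb gathered 248 of the 458 regions (54.1%) into 12 stretches of at least 5 regions, which together spanned 24.1 Mb on 8 chromosomes. The main stretches are described in turn by the genes nearest to their regions.

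**Figure D2:**
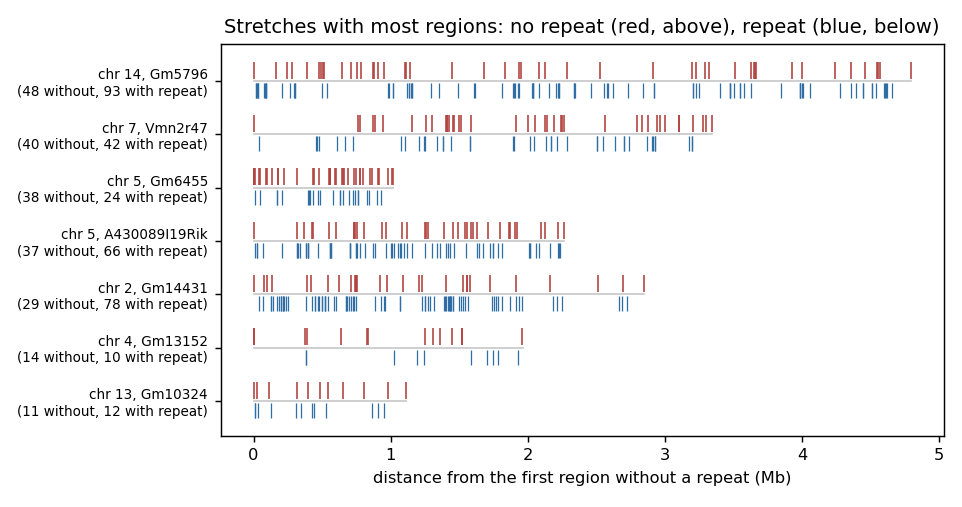
Positions along the 7 stretches with most regions, as distance in Mb from the first region without a repeat. Red ticks above each line are regions without a repeat and blue ticks below are regions centred on a repeat; labels give the chromosome, the gene most often nearest and both counts. Regions of both kinds lie along each stretch, with some runs of only red ticks, and their numbers run from 48 without and 93 with a repeat on chromosome 14 to 11 and 12 on chromosome 13.

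The densest of the large stretches, called here the Speer1 stretch, lay around Speer1-ps1, a gene of the glutamate-rich proteins associated with spermatogenesis. It ran from chr5:10896509 to 11912064 and held 38 regions without a repeat in 1.02 Mb, all of them in clusters, and 24 regions with a repeat. Of the 38, 1 was intronic. Gm6455 was the nearest gene to 11 of them, Gm6460 to 10, Speer1-ps1 to 9, 1700003C15Rik to 5 and 4933402N22Rik to 3. RefSeq lists 40 genes in the stretch, of which 21 are pseudogenes and 3 code for protein, and it names Speer1-ps1 as Speer1. Most of the others (34) have a Gm symbol, and no other nearest gene there has a Speer symbol. Genes with a Speer symbol were nearest to 1.97% of the 458 regions (1.04 to 3.69%) and to 0.265% of those with a repeat. In the 458 this was 1 gene, Speer1-ps1, so the share is that of 1 locus. The scores were low and close together, from 4.67 to 15.1 with a median of 6.91. The largest single cluster of the whole set, chr5:11329196-11912064, was part of this stretch and held 25 regions.

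The stretch of Pramel genes followed on the same chromosome, from 93484619 to 95748882. PRAME-like proteins are leucine-rich repeat proteins of a large family active in germ cells and early embryos. It held 37 regions without a repeat beside 66 with one. A430089I19Rik, now Pramel39 in RefSeq, was nearest to 9 of them, Gm7978 (Pramel50) to 4 and Gm6367, a pseudogene, to 4. C87414 (Pramel34), Gm3259 (Pramel47) and AU018829 were nearest to 3 each. RefSeq names 18 Pramel genes in the stretch. By current RefSeq symbols, Pramel genes were nearest to 24 of the 458 regions, 5.24% (3.55 to 7.68%), and to 0.312% of the 18902 autosomal TSS-distal regions with a repeat. This family was added after the data were seen. Scores of the 37 ran from 4.88 to 16.4, with a median of 9.13.

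Vomeronasal receptors of the second type (Vmn2r), pheromone receptors of the vomeronasal organ, marked a stretch of chromosome 7 from 6553052 to 9893747. It held 40 regions without a repeat and 42 with one, and RefSeq lists 19 protein-coding Vmn2r genes and 53 pseudogenes of all kinds in it. Vmn2r47 was the gene most often nearest in the whole set, with 16 regions in 4 clusters and 1 pair, and the list puts 5 regions in its introns. Vmn2r46 was nearest to 5, and Vmn2r45 and Vmn2r36 to 3 each. Over all autosomes, Vmn2r genes were nearest to 37 regions without a repeat (8.08%, 5.92 to 10.9%) and to 189 with a repeat (1.0%, 0.868 to 1.15%). Of the 37, 33 lay in clusters, and their median score was 6.16. Among the other receptor families, Vmn1r genes were by current RefSeq symbols nearest to 5 (1.09%, 0.467 to 2.53%, against 1.02% of the regions with a repeat) and olfactory receptors to 7 (1.53% against 1.86%).

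The start of chromosome 14 had, over 4.79 Mb, the most regions of any stretch, 48, beside 93 with a repeat. Of the 162 RefSeq genes there, 149 carry a predicted-gene symbol, 76 code for protein and 50 are pseudogenes. Gm5796 was nearest to 7 regions, LOC100861615 and Gm10406 to 5 each, and Gm10413 and Gm3558 to 4 each. The list describes LOC100861615 as alpha takusan-like, after a multicopy family first studied at synapses. These regions scored somewhat higher than those of the Speer1 and Vmn2r stretches, with a median of 9.34 and a median score per kb of 18.1, against 11.7 in the Speer1 and 12.1 in the Vmn2r stretch.

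Stretches on chromosomes 2 and 4 held genes of zinc finger proteins (Zfp), DNA-binding proteins many of which repress transposable elements. RefSeq names 9 Zfp genes in the first and 13 in the other, although the list gives most of the nearest genes only a predicted symbol. On chromosome 2 (175227765 to 178073097) there were 29 regions without and 78 with a repeat. Gm14431, named Zfp967 in RefSeq, and the pseudogene Gm14405 were nearest to 5 each, and Gm14295 to 4. On chromosome 4 (145802146 to 147763694) there were 14, of which 10 were intronic; Gm13152, named Zfp982, was nearest to 4 and Zfp600 to 2. The region with the lowest score of the set, 4.25, lay there (chr4:147322242-147322742). In a smaller stretch of chromosome 13 (65705933 to 66815735) Gm10324 was nearest to 7 of 11, and RefSeq names 1 Zfp gene among 9 protein-coding genes. The symbols mattered for the count of Zfp genes: 5 regions (1.09%) were nearest to a gene with a Zfp symbol in the list, the same share as among regions with a repeat (1.09%). By current RefSeq symbols it was 18 (3.93%, 2.5 to 6.13%) against 1.26%.

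In 2 of these stretches the regions with a repeat also had low scores for their length. Their median score per kb was 13.2 in the chromosome 2 stretch and 16.6 in the Pramel stretch, where the regions without a repeat had 13.6 and 14.4. In the Speer1 stretch the regions with a repeat had 26.7 and in the Vmn2r stretch 27.1, near the autosomal LINE median of 29.1. Not all of these regions were at LINE elements. LINE made up 22 of 78 in the chromosome 2 stretch, 44 of 66 in the Pramel, 19 of 24 in the Speer1 and 28 of 42 in the Vmn2r stretch. Whether this mix bears on the medians was not tested.

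The array of 5S ribosomal RNA genes on chromosome 8 held a cluster of another kind. 5S rRNA is the small RNA of the large ribosomal subunit that RNA polymerase III transcribes from tandem gene copies. The list names Gas8 as the nearest gene to 5 regions there and Rhou to 4, and names no 5S gene. RefSeq places 50 5S models, 2 of them pseudogenes, from chr8:123538784 to 123622046, with a median spacing of 1698 bp. In this array lay 9 of the 458 regions, all 500 bp long, and 1 region at a (TGGA)n repeat. Of the 9, 8 covered a whole 5S model and 1, chr8:123544468-123544968, lay between models. No other autosomal region of the list overlapped any rRNA gene of RefSeq, which has 60 rRNA models on the autosomes.

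The 9 scores were nearly level. In order along the chromosome they were 5.52 for the region between models, then 6.16 over n-R5s107, 5.31 over n-R5s110, 7.22 over n-R5s113 and 5.31 over n-R5s117. After a gap of 36.8 kb, which held only the region at the (TGGA)n repeat (score 5.31), they were 5.73 over n-R5s139, 6.16 over Gm22109, 5.95 over n-R5s146 and 5.73 over Gm22291. The 8 regions over models were placed alike, each with its centre 98 to 175 bp below the centre of the model in coordinates. Thus 8 of the 48 models not called pseudogenes lay under a region, and the others did not; the depth behind each copy is unknown.

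**Figure D3:**
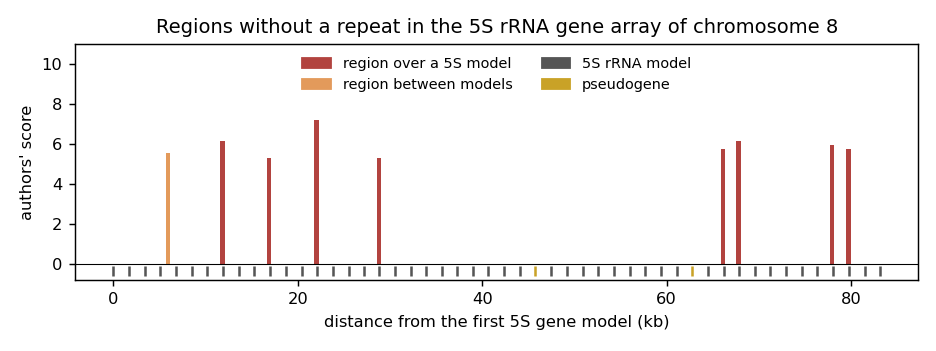
Authors' score (bars, from 0) of the 9 regions without a repeat in the 5S array, by distance in kb from the first 5S gene model; ticks below the axis are the models. Dark red bars cover a model and the orange bar lies between models; the scores run from 5.31 to 7.22, with no region without a repeat over a gap of 36.8 kb.

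The pancreatic amylase genes on chromosome 3, whose products split starch, held a region in the same intron of each copy. Amy2a5, Amy2a4, Amy2a3 and Amy2a2 each held 1 of the 458 regions, always in intron 7 of 9 and 6.43 to 6.48 kb from a TSS. In Amy2a5 it was chr3:113251941-113252567 with a score of 9.13. In Amy2a4 it was chr3:113284522-113285148 with 9.34, in Amy2a3 chr3:113317172-113317798 with 10.2, and in Amy2a2 chr3:113349725-113350360 with 9.34. The lengths were 626 bp in 3 copies and 635 bp in Amy2a2. The list gives Amy2a5 as the nearest gene to all 4, so its gene names do not separate the copies. Regions in intron 5 of 9 of Amy2a4 and Amy2a3 fell just outside the rule, at 4820 and 4918 bp from a TSS, with scores of 13.2 and 12.5. Intron 5 of 9 of Amy2a2 also held one, at 4811 bp with a score of 9.56, and Amy2a5 had none there. Intron 4 of 9 held a region in all 4 copies, 3198 to 3277 bp from a TSS. The annotation named the LINE element Lx9 for it in Amy2a5 and Amy2a4, with scores of 9.98 and 10.2. It named no repeat in Amy2a3 and Amy2a2, with scores of 8.49 and 8.92. The remaining regions of the list differed between the copies. Intron 9 of 9 held one in each copy but Amy2a5, and only Amy2a3 and Amy2a2 had one closer to a TSS, at 492 and 550 bp. The region closest below the threshold was chr5:11764063-11764563 in the Speer1 stretch, at 4995 bp, with a score of 6.37. Just inside were chr5:11334974-11335474 at 5184 bp (nearest gene Speer1-ps1, score 5.52), chr16:21939443-21944683 at 5489 bp (Tmem41a, 168.4) and chr2:178072597-178073097 at 5578 bp (Zfp931, 7.43).

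The gene names of the list were set against RefSeq positions. Of 450 regions whose nearest gene had a RefSeq position, 68 (15.1%, 12.1 to 18.7%) lay more than 1000 bp farther from that gene than the distance the list gives, so the RefSeq position of that name was not where the list measured from. Among regions with a repeat it was 380 of 18792 (2.02%, 1.83 to 2.23%). In clusters the count was 46 of 184 (25%, 19.3 to 31.7%) and outside them 22 of 266 (8.27%, 5.53 to 12.2%). RefSeq places Vmn2r47 at chr7:9816782-9841325, while the 16 regions named for it spread over 1.92 Mb and 13 of them were of this kind. So were all 5 regions named for Gm14431 and all 4 named for Gm6367, but none of those named for Gm6455, Gm6460 or Speer1-ps1. Of the 125 intronic regions with a named host, 32 (25.6%, 18.8 to 33.9%) lay outside the RefSeq position of that host. These 32 included all 5 of Gm14391, all 5 of Gm6367 and 4 of the 5 of Vmn2r47. In the multicopy stretches, gene names are read here as names of a family, and distances to a TSS are the list's own.

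Over all 458 regions the nearest genes were 275, of which 202 were nearest to 1 region each. The 23 genes that were nearest to 4 or more accounted for 140 regions (30.6%), and 16 of the 23 carried a predicted-gene or RIKEN symbol. Such symbols were given to the nearest gene of 198 regions, 43.2% (38.8 to 47.8%), against 21.0% (20.4 to 21.6%) of the regions with a repeat. The difference lay in the Gm symbols, with 133 regions (29.0%, 25.1 to 33.4%) against 7.74%. RIKEN symbols, here also those with a digit after Rik, had 66 (14.4%, 11.5 to 17.9%) against 13.3%, nearly the same share. For both kinds of symbol together the share was 58.3% (51.1 to 65.1%) in clusters and 32.8% (27.5 to 38.6%) outside them. Among TSS-distal regions without a repeat on X and Y it was 95.2% and 89.1%, so it is not particular to the autosomal set. By the type given in the list, the nearest gene was a pseudogene for 38 regions (8.3%, 6.1 to 11.2%), against 2.43% of the regions with a repeat. Of the 38, 9 were nearest to Speer1-ps1, which RefSeq names Speer1 and lists as coding for protein. By current RefSeq symbols, Skint, Cyp, Serpin, Krt, Ugt, Mup, Scgb and Sfi1 genes were nearest to 0 of the 458, and 1 region was nearest to a defensin gene (Gm14851, now Defa38). A count of 0 allows a share of up to 0.832% (upper Wilson bound), and these families had at most 0.466% of the regions with a repeat, so the zeros do not set the regions apart. None of 13 germ cell genes, such as Sycp3, Stra8, Ddx4 and Prm1, was nearest to a region of the set. The same held for 6 Sertoli and Leydig genes, such as Sox9 and Star. Among the 18902 regions with a repeat, 2 were nearest to 2 of the 13 and 1 to 1 of the 6. These zeros therefore do not set the regions apart either.

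The overlap with RefSeq genes is partly set by the choice, which took intronic and intergenic regions away from the TSSs of the list. A RefSeq pseudogene overlapped 41 of the 458 (8.95%, 6.67 to 11.9%), against 1.35% (1.19 to 1.52%) of the regions with a repeat. Outside clusters it was 19 of 271 (7.01%, 4.53 to 10.7%). Many of the 41 lay in the stretches described above, which also hold regions outside clusters. There were 18 in the Vmn2r stretch, 6 in that of chromosome 4, 5 in that of chromosome 2 and 3 in that of chromosome 13. The Speer1 and Pramel stretches and the start of chromosome 14 had 0. The share outside clusters is therefore not a share outside the gene families. A long non-coding RNA overlapped 57 (12.4%, 9.73 to 15.8%) against 6.68%, and a protein-coding gene 141 (30.8%, 26.7 to 35.2%) against 23.3%. A RefSeq gene of any kind lay at 236 (51.5%, 47.0 to 56.1%) against 31.3%. Host genes could be named for 125 of the 127 intronic regions. By the names in the list the hosts were 93 genes, of which 75 were named for 1 region. Gm14391, Gm6367 and Vmn2r47 were named for 5 each, of which 5, 5 and 4 lay outside the RefSeq position of that host. St3gal4, a sialyltransferase, hosted 3 in intron 1 of 10 within 8.03 kb, with scores of 5.95, 7.22 and 6.16.

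The regions had a median distance to a TSS of 57.6 kb (order-statistic 95% interval 47.3 to 68.1 kb), against 117 kb for all regions with a repeat, 135 kb at LINE elements, 96.9 kb at simple repeats and 65.1 kb at LTR elements. In clusters the median was 40.0 kb and outside them 77.1 kb. The farthest lay 1699 kb from a TSS (chr1:113563286-113563925, nearest gene Dsel, score 6.37). The intronic share of 27.7% (23.8 to 32%) was close to that at simple repeats, 27.6%, and above the 21.1% at LINE elements. A region with a named repeat lay within 10 kb of 143 of the 458 (31.2%, 27.1 to 35.6%), and within 1 kb of 16. Another region with a repeat lay within 10 kb of 58.2% of the LINE, 60.1% of the LTR and 12% of the simple repeat regions.

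Most of the regions were short and of low score. Of the 458, 288 were exactly 500 bp long, 62.9% (58.4 to 67.2%), against 32.2% at LINE, 38.2% at LTR elements and 73.7% at simple repeats. A further 129 were up to 1000 bp long, 30 were up to 3000 bp and 11 were longer. The median score was 7.65 (quartiles 5.95 and 11.9), against 21.9 at LINE elements, 20.4 at LTR elements and 6.8 at simple repeats. Only 63 (13.8%) reached the median score of the whole list, 17.8, against 62.3% of the LINE regions. Because the score grows with length, it was also divided by length. The median score per kb was 13.6 (12.7 to 14), below the LINE median of 29.1 and the LTR median of 30.8 and next to the 12.7 at simple repeats. On each of the 19 autosomes the median lay below that of the LINE and of the LTR regions, from 10.8 to 21.5 per chromosome for the set and from 28.4 to 29.8 for LINE. Against simple repeats it was lower on 8 of the 19. Regions of the same kind on the sex chromosomes had medians of 11.9 on X (271 regions) and 12.6 on Y (7173).

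**Figure D4:**
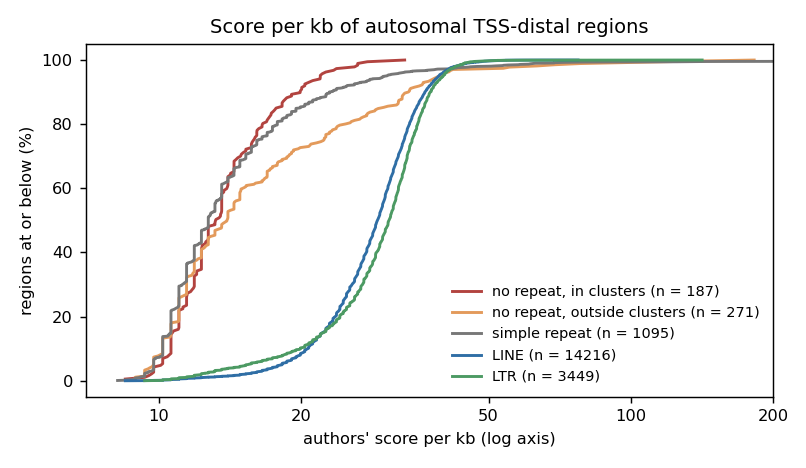
Cumulative share of autosomal TSS-distal regions (vertical axis, %) at or below a given score per kb (horizontal axis, log scale), for regions without a repeat in and outside clusters and for simple repeat, LINE and LTR regions. The lines of the regions without a repeat run with simple repeats up to about their median (13.2 in and 14 outside clusters), and the line outside clusters then bends towards the LINE line; scores per kb above 200 are beyond the axis.

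Inside and outside clusters the medians were alike, but the upper parts were not. The median score per kb was 13.2 (12.6 to 13.6) in clusters and 14 (12.7 to 14.9) outside. Above 20 per kb lay 18 of the 187 clustered regions (9.63%, 6.18 to 14.7%) and 74 of the 271 others (27.3%, 22.3 to 32.9%). Above 30 lay 1 and 40. All 8 regions above 50 per kb stood outside clusters of 3 or more.

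The highest score per kb belonged to chr16:3349765-3350265, intergenic and 242 kb from the TSS of Olfr161, with a score of 91.3 over 500 bp, or 183 per kb. The second and the fifth lay in the same intron, 2 of 8, of D5Ertd579e on chromosome 5. The one at 36630379 to 36630879 had 133 per kb, and the one at 36660817 to 36661823 is the region with the tandem word shown above. The predicted gene Gm32584 runs from 36630163 to 36661658, on the minus strand, so that the first lay within its 3' end and the other over its start. Then came chr4:70377944-70378569 in intron 4 of 36 of Cdk5rap2, a centrosomal protein, with 102 per kb, and chr6:103314416-103315041 near Chl1, a neural adhesion molecule, with 78.1. Further regions among the first 10 had 41.4 to 63.3 per kb and were nearest to Gm4736, Fam107b, 6820431F20Rik and Epha3. Whether their sequence holds tandem repeats like that in the Gm32584 window was not analysed here.

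The highest scores belonged to long regions. The first, with a score of 561.9, was the longest region of the set, chr7:64469552-64493490, intergenic over 23938 bp and 20.2 kb upstream of Apba2, a neuronal adaptor protein. It had 23.5 per kb and alone held 8.16% of the summed score of the 458 regions. Regions at both of its sides, with scores of 68.0 and 33.8, made it a cluster of 3 over 30.6 kb in which no region with a repeat and no RefSeq gene lay. The next 9 by score had 98.7 to 201.7, were 4020 to 5660 bp long and stood outside clusters. They were nearest to Cdh20, Ccdc88a, Pkia, Tmem41a, Rwdd3, Olfr1350, Gm15421, 2610100L16Rik and Ccdc91. At chr1:104218234-104223793, 548 kb from Cdh20, the score was 201.7 over 5559 bp. In intron 7 of 31 of Ccdc88a (chr11:29439074-29444604) it was 199.8 over 5530 bp. At chr3:7217939-7223599, 146 kb from Pkia, it was 192.6 over 5660 bp. In the last intron of Orc5, a subunit of the origin recognition complex (chr5:22491908-22497562, intron 13 of 13), it was 112.8 over 5654 bp.

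By median, these 9 regions of 4 to 6 kb were close to LINE regions of that length in score per kb. In order of score they had 36.3, 36.1, 34.0, 32.1, 32.8, 29.2, 19.95, 27.7 and 20.9 per kb. Those nearest to Gm15421 and Ccdc91 lay below the lowest autosomal LINE region longer than 3 kb, 22.4, and none lay above the highest, 49.9. The median of the 9 was 32.1, and that of the 631 autosomal LINE regions of 4 to 6 kb was 31.9 (quartiles 29.97 and 33.7). The regions of 500 bp, in contrast, had medians of 12.3 without a repeat and 26.4 at LINE elements. The annotation names only what lies at the centre of a region, and what lies elsewhere in these long regions was not analysed here. The 11 regions longer than 3 kb held 29.0% of the summed score of the set.

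**Figure D5:**
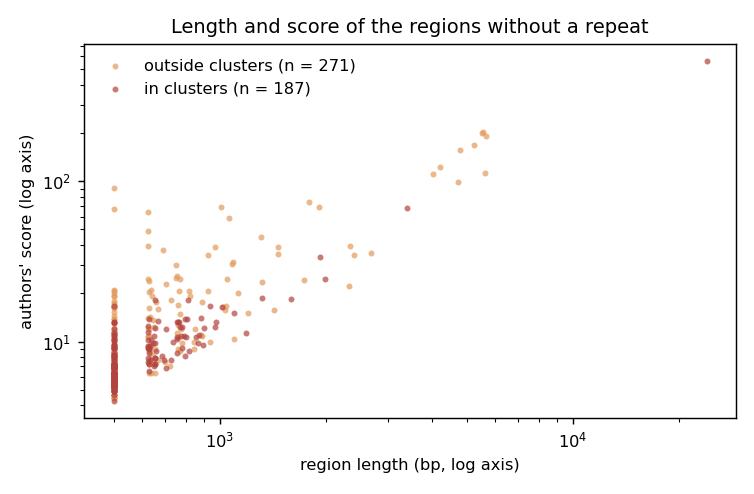
Length (horizontal, bp) and authors' score (vertical) of the 458 regions, both on log axes, coloured by whether the region lay in a cluster. Most points stand at or near 500 bp with scores under 20; a separate group of long regions outside clusters lies between 4020 and 5660 bp with scores of 98.7 to 201.7, and the region near Apba2 lies beyond it at 561.9.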

How the data were processed

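For all libraries together the authors deposited 1 table of regions, made per the file headers with HOMER's annotation program and mm10. The submitters' processing notes name Bowtie2 2.2.2, SAMtools and HOMER 4.6 without roles; for the libraries behind the table, the control and the peak settings, "not given in the sources used here" applies. The deposited score is the authors' value per region, with no stated unit. Length and distance to the TSS are the deposited values in bp. The list has 0 columns per library, so depth is unknown and nothing was tested: shares carry Wilson 95% intervals, and medians carry order-statistic 95% intervals.

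Clusters joined regions at gaps of up to 100 kb and had at least 3 members. Positions are as deposited. RefSeq genes (GRCm38.p6) were matched by gene number to the nearest gene of 450 of the 458 regions. RefSeq starts below 3 Mb (except on Y), which include positions on unplaced contigs, were left out. The 5S models, amylase copies, 1000 kb stretches, length classes, check of gene names against RefSeq positions and tandem word were chosen after the values were seen. Named genes were those nearest to 4 or more regions, those of the main clusters, the extremes of score, score per kb, length and distance, and the families listed. The members and lists were chosen with earlier results of these data known. A comparison of promoter copies among nearest genes was void, since 71.0% of the regions had a gene with a promoter window and 80% were required. Clustering and intervals were tested on simulated data. Scripts ran in Python 3.11.15 with NumPy 2.4.6 and pandas 2.3.3; intervals came from SciPy 1.17.1 and plots from matplotlib 3.10.9. Of the regions that the naming rule selects, 1 is not reported here.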

Additional observations from a re-analysis of the deposited data

How the results depend on the processing

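Of 57 alternative values, 18 stayed within the interval of the reported value (or within 1.5 times of a count) and 39 did not; the alternatives without clustered regions and the current gene symbols were chosen after seeing the data. With a TSS distance above 1000 bp the set had 520 regions (2.62% of the autosomal regions). Above 50000 bp it had 242 (1.22%), with a median TSS distance of 129 kb, a median gap of 308 kb, 27.3% in clusters, 17.8% intronic and 6.61% nearest to a receptor gene. With scores at or above the list median it had 63 (0.562%), a median length of 1006 bp, 32.1 per kb, a gap of 7641 kb, 4.76% in clusters, 39.7% intronic, 15.9% nearest to a predicted gene, 6.35% to a receptor gene and 25.4% within 10 kb of a repeat region. In those the set was not below LINE regions (31.3 per kb), where the score that was compared also selected the regions. Without regions of 500 bp it had 170 (1.36%), a median of 758.5 bp, 15.6 per kb, a gap of 298 kb, 25.3% in clusters, 35.9% nearest to a predicted gene and 20% within 10 kb of a repeat region. Without chromosome 5 the share was 2.01%, the gap 198 kb, 31.99% were in clusters and 38.2% nearest to a predicted gene. Without clustered regions the TSS distance was 77.1 kb, and 32.8% and 4.06% were nearest to a predicted and a receptor gene, against 43.2% and 10.3%. The clustered share was 9.17% at gaps of 10 kb, 61.4% at 1000 kb and 51.3% with clusters of at least 2. The share near a repeat region was 3.49% at 1 kb and 80.3% at 100 kb. What caused these shifts is unknown here, as no test of it was run. No paired analysis was possible because values per library are not part of the table used, and for that reason ChIP against input and leaving out each replicate were not run.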
